A study of Mus musculus with 6 samples.

Results

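The 39 clustered Hox genes are the homeobox genes of the HoxA, HoxB, HoxC and HoxD clusters. They were taken here as the genes whose array probes carry a name made of Hox, a cluster letter and a number. All 39 were on the array with 52 probes, of 27195 named genes in all, and 10 of them had more than 1 probe. They were read in cultured marrow stromal cells from 3 wild-type (WT) samples and 3 samples of NONMMUT002667-KO mice, in which a long non-coding RNA gene is knocked out. Cells had been released by collagenase from crushed mouse femurs, sorted for surface Sca-1 and CD29 in the absence of CD45 and CD11b, and grown through a first passage. Both groups are labelled male, and no other treatment of the mouse cells is given. Strain, age, the kind of KO allele and the number of animals behind each sample are not given in the sources used here, so p-values measure only the spread between these samples, which may be technical. The knocked-out RNA is not named on the array and was not analysed here, so the arrays give no direct check of the KO labels. The labels' description and extraction fields speak of human blood. The titles, source names and organism field, which speak of mouse stromal cells, were followed.

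Hox genes encode transcription factors that give cells an address along the body. In each cluster the genes stand in the order in which they are used from head to tail, with low numbers at the 3′ end and high numbers at the 5′ end, and genes with the same number in different clusters are paralogues. In the limb, the 5′ genes pattern the skeleton from the trunk outwards: group 10 genes are needed for the thigh and upper arm bones, group 11 genes for the shank and forearm, and group 13 genes for the hand and foot. Adult bone, periosteum and marrow stroma keep part of this code, so the set of Hox genes that stromal cells transcribe is used as a record of where in the skeleton they came from. Pitx1 and Tbx4 mark the hindlimb field and Tbx5 the forelimb field.

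Each sample was hybridised with 1 dye to 1 Agilent array. Values below are log2 signals minus the 75th percentile of that array, so 0 marks that percentile. Probes differ in brightness, so levels were compared between arrays for 1 probe and never between probes. A probe counts as detected where the scanner software marked it as well above background. That mark was on 54.29% to 56.68% of non-control spots in WT and on 49.0% to 53.02% in KO. All 6 arrays lay on 1 slide, with the WT arrays in row 1 and the KO arrays in row 2, so slide row and genotype cannot be told apart. Xist, the RNA of the inactive X chromosome, was detected in WT replicate 3 and in KO replicate 1 but in none of the other samples. Eif2s3y, a gene of the Y chromosome, was detected in all of the other samples and in neither of these. Both genes go against the male label of WT replicate 3 and KO replicate 1. Results are given without these arrays where that changes a call. Ptprc and Itgam, which encode the CD45 and CD11b that the sort excluded, were detected on all 6 arrays, as were 24 of the 25 macrophage and monocyte markers measured. Ptprc had means of 3.32 in WT and 3.52 in KO, Itgam 4.02 and 4.14, and Csf1r, the receptor for the macrophage growth factor, 7.52 and 7.65. Which cells of these cultures carried the Hox transcripts was not tested. In such bulk samples, fewer cells of a type and less RNA per cell cannot be told apart.

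In the femur cultures many HoxA and HoxC genes, some HoxB genes and almost no HoxD genes were detected. In all, 18 of the 39 genes (46.2%) were detected on all 6 arrays, against 14295 of the 27195 named genes (52.6%). These 18 comprised 7 of 11 HoxA genes (among them Hoxa3, Hoxa5, Hoxa7, Hoxa9, Hoxa10 and Hoxa11) and 3 of 10 HoxB genes (Hoxb2, Hoxb3 and Hoxb4). They also comprised 7 of 9 HoxC genes (Hoxc4, Hoxc6, Hoxc8, Hoxc9, Hoxc10, Hoxc11 and Hoxc13) and 1 of 9 HoxD genes, Hoxd8. Another 7 genes were detected on 1 to 5 arrays and 14 on none. By paralogue group, 6 of 12 genes of groups 1 to 4, 5 of 11 of groups 5 to 8 and 6 of 10 of groups 9 to 11 were detected on all 6 arrays. Of the 6 genes of groups 12 and 13, which pattern the far end of limb and trunk, 1 was, Hoxc13. These counts rest on each gene's brightest probe, and other probes did not always match it. A second Hoxc13 probe, designed to another transcript, was not detected on any array. Hoxa3, Hoxa9 and Hoxb2 also had probes not detected on any array, among them a Hoxa3 probe to the same transcript as the detected probe. A second Hoxd8 probe was detected on 2 arrays, both WT, and another Hoxb3 probe on 3. The number of Hox genes detected per array was 20, 21 and 22 in WT and 21, 18 and 19 in KO, so the groups overlapped.

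**Figure D1:**
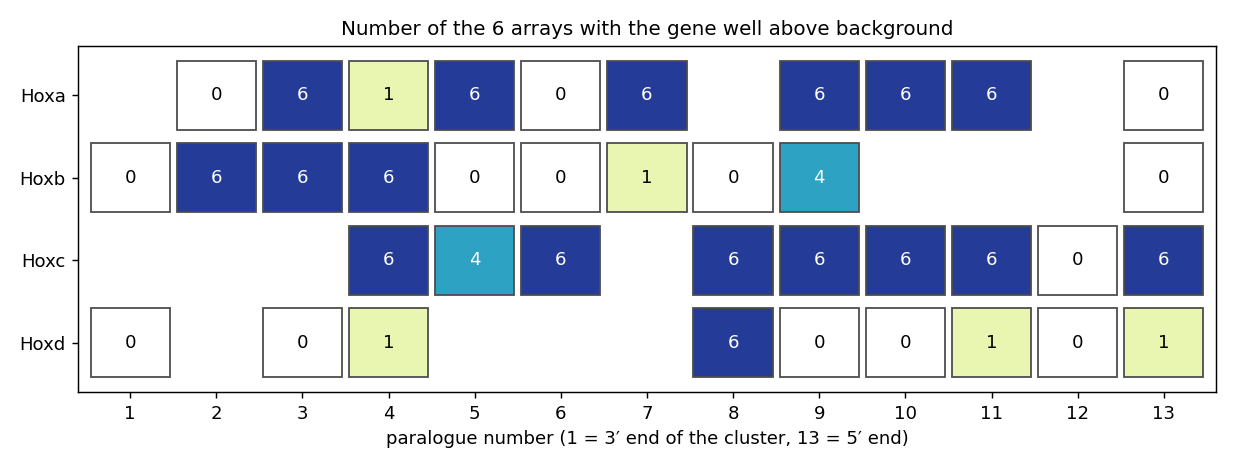
Grid of 38 of the Hox genes by cluster (vertical axis) and paralogue number (horizontal axis). Each box gives the number of arrays, of 6, on which the gene's brightest probe was well above background: most boxes of Hoxa and Hoxc read 6, and Hoxd8 is the only box of Hoxd that does.

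The 4 Hox genes taken as markers of femur stroma were in part present. They include genes of the thigh group and also Hoxa11, whose group patterns the next segment of the limb. Both groups also pattern the forelimb, so detection of Hoxa10 and Hoxa11 does not by itself mark the hindlimb. Of the 4 genes, Hoxa10, Hoxa11 and Hoxc10 were detected on all 6 arrays, and Hoxd9 was detected on none. Hoxd9 had -5.70, -6.23 and -5.20 on the WT arrays and -5.69, -6.21 and -5.76 on the KO arrays, all at a level not well above background. Its HoxD neighbour Hoxd10, a further paralogue of the thigh group, was not detected on any array either. The other genes not detected on any array included Hoxa2, Hoxa6, Hoxa13, Hoxb1, Hoxb5, Hoxb6, Hoxb8, Hoxb13, Hoxc12, Hoxd1, Hoxd3 and Hoxd12. Pitx1, which specifies the hindlimb to which the femur belongs, was detected on all 6 arrays. It had 0.76, 1.14 and 1.08 in WT and 1.05, 0.87 and 1.02 in KO, and the groups overlapped (log2 difference -0.01, SE 0.12; limma adjusted p = 0.975). Tbx4, which acts with it, was detected on 2 arrays, both WT, with -4.55, -3.83 and -3.37 in WT and -4.18, -4.24 and -3.92 in KO. Tbx5, the forelimb counterpart, was detected on none.

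Some Hox genes stood at the limit of detection and were seen on part of the arrays. Hoxb9, a gene of the thoracic body region, was detected on 3 WT arrays and 1 KO array, and is described with the KO comparison. Hoxc5, a gene of the neck and upper trunk, was detected on the same number of arrays, with -3.63, -3.29 and -3.15 in WT and -3.06, -3.89 and -3.43 in KO, and its groups overlapped. Hoxa4 had -4.91, -5.60 and -4.16 in WT and -4.25, -3.98 and -4.38 in KO and was marked as detected on WT replicate 3 alone. The same array alone carried the mark for Hoxb7, which had -4.36, -4.52 and -3.72 in WT and -4.71, -4.27 and -4.29 in KO. In both genes the WT and KO values overlapped, and neither was tested.

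The 3 remaining genes of this kind are HoxD genes, each detected on a single array that stood apart from the other 5. Hoxd4 reached -2.17 on KO replicate 3, against -5.90, -5.52 and -4.92 in WT and -4.42 and -4.37 on the other KO arrays. Hoxd11, a shank and forearm gene, reached -3.55 on WT replicate 2, against -6.64 and -6.83 on the other WT arrays and -6.41, -6.29 and -5.90 in KO. Hoxd13, a hand and foot gene, reached -4.00 on KO replicate 1, against -6.58, -6.71 and -6.76 in WT and -6.22 and -5.85 on the other KO arrays. A different array was high for each of the 3 genes. In Hoxd4 and Hoxd13 all KO values lay above all WT values, and in Hoxd11 the groups overlapped. Apart from those single arrays the values were not well above background, where signals give no firm order. None of the 3 genes was tested.

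The KO comparison asked whether the positional code differs when the long non-coding RNA is lost. A probe was tested if it was detected on all arrays of at least 1 group, which let 20 Hox genes in and left 19 out. None of the 20 passed the adjusted threshold of 0.05 in limma in either direction, where 0.0651% of the 15371 genes tested passed as lower in KO and 0.0130% as higher. At an unadjusted limma p under 0.05, 4 Hox genes were lower in KO (Hoxa7, Hoxa10, Hoxa11 and Hoxb9) where 8.03% of all genes were, and 1 was higher (Hoxc13) where 6.94% were. All KO values lay below all WT values in 3 Hox genes and above them in 1, where the shares over all genes tested were 10.4% and 12.0%. The median log2 difference over the 20 was -0.06, against 0.02 over all genes tested. For 12 of the 20 the log2 difference was smaller than 0.2 in size, with a median SD between arrays of 0.16 in WT and 0.20 in KO. Without WT replicate 1, 7 Hox genes had an unadjusted p under 0.05 as lower in KO, with Hoxb2, Hoxc4 and Hoxc9 added. Without the arrays with Xist signal, 2 remained lower, Hoxa11 and Hoxb9, and none was higher. Among probes detected on all 6 arrays, which leaves out Hoxb9, 3 were lower and 1 higher.

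**Figure D2:**
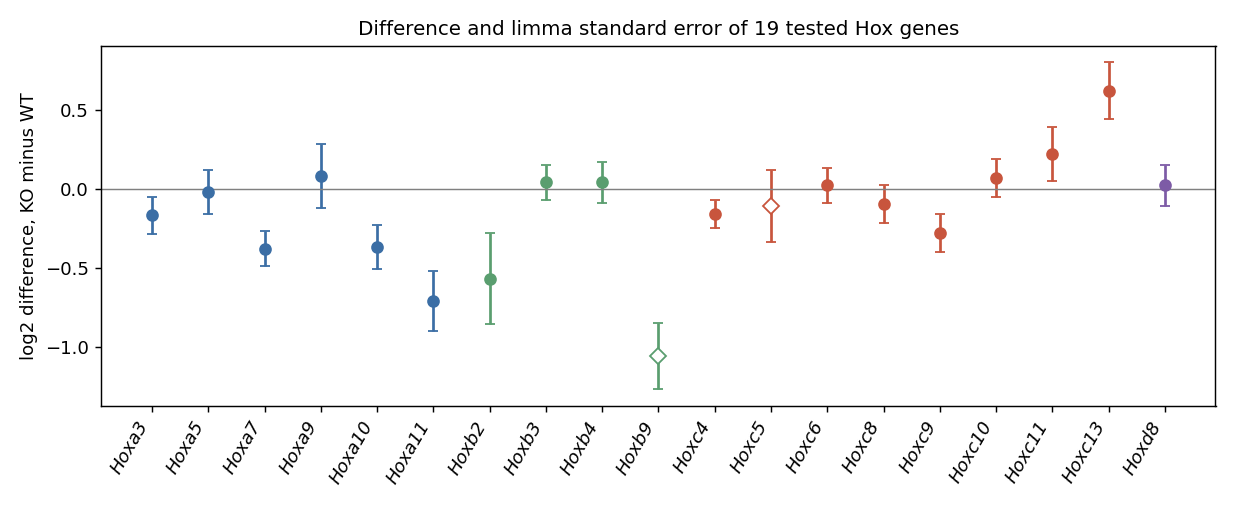
Log2 difference (KO minus WT, vertical axis) of 19 of the tested Hox genes in cluster order, with bars of 1 limma standard error. Filled circles are genes detected on all 6 arrays and open diamonds the 2 detected on 4 (Hoxb9 and Hoxc5). Among the filled circles Hoxa11 lies lowest, at -0.71, and Hoxc13 highest, at 0.62, and the point of Hoxb9 rests in part on KO values not well above background.

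Along HoxA, the lower values in KO stood at the 5′ genes Hoxa10 and Hoxa11 and at Hoxa7. Hoxa11, which patterns the shank and forearm and stays active in periosteal stroma, had 0.18, -0.17 and -0.30 in WT and -1.12, -0.80 and -0.50 in KO. Every KO array lay below every WT array. The log2 difference was -0.71 (SE 0.19, n = 3 each), a 1.63-fold lower signal, with a limma adjusted p of 0.164. Its probe lies on chromosome 6 at 52192107 to 52192166 (mm9, the build of the deposited probe positions).

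Hoxa10, a paralogue group 10 gene that patterns the femur, had 1.1, 1.37 and 1.23 in WT and 0.80, 0.67 and 1.11 in KO by its brighter probe (chromosome 6, 52181437 to 52181496, mm9). KO replicate 3 lay just above WT replicate 1, so the groups overlapped. The log2 difference was -0.37 (SE 0.14; limma adjusted p = 0.271). Its second probe gave -1.63, -1.46 and -1.63 in WT and -1.82, -1.96 and -1.68 in KO, a log2 difference of -0.25 in the same direction with no overlap (limma adjusted p = 0.318). Without the arrays with Xist signal the difference of Hoxa10 was -0.34 (limma adjusted p = 0.573). Its unadjusted limma p was no longer under 0.05 there, nor when WT replicate 2, WT replicate 3, KO replicate 1 or KO replicate 2 was left out, nor without a filter on dim probes.

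Hoxa7, a gene of the middle of the cluster that patterns thoracic vertebrae, had 0.60, 0.80 and 0.82 in WT and 0.38, 0.21 and 0.50 in KO. The KO arrays were all below the WT arrays, with a log2 difference of -0.38 (with SE 0.11 and a limma adjusted p of 0.185; chromosome 6, 52165626 to 52165685, mm9). Without the arrays with Xist signal it was -0.35 (limma adjusted p = 0.47). Between Hoxa7 and Hoxa10 stands Hoxa9, best known from blood stem cells and leukaemia, with -2.87, -2.66 and -2.41 in WT and -2.34, -2.98 and -2.36 in KO. Its groups overlapped widely, with a log2 difference of 0.08 (with SE 0.20 and a limma adjusted p of 0.891). The 3′ genes Hoxa3 and Hoxa5 had log2 differences of -0.17 and -0.02, with limma adjusted p of 0.56 and 0.965.

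**Figure D3:**
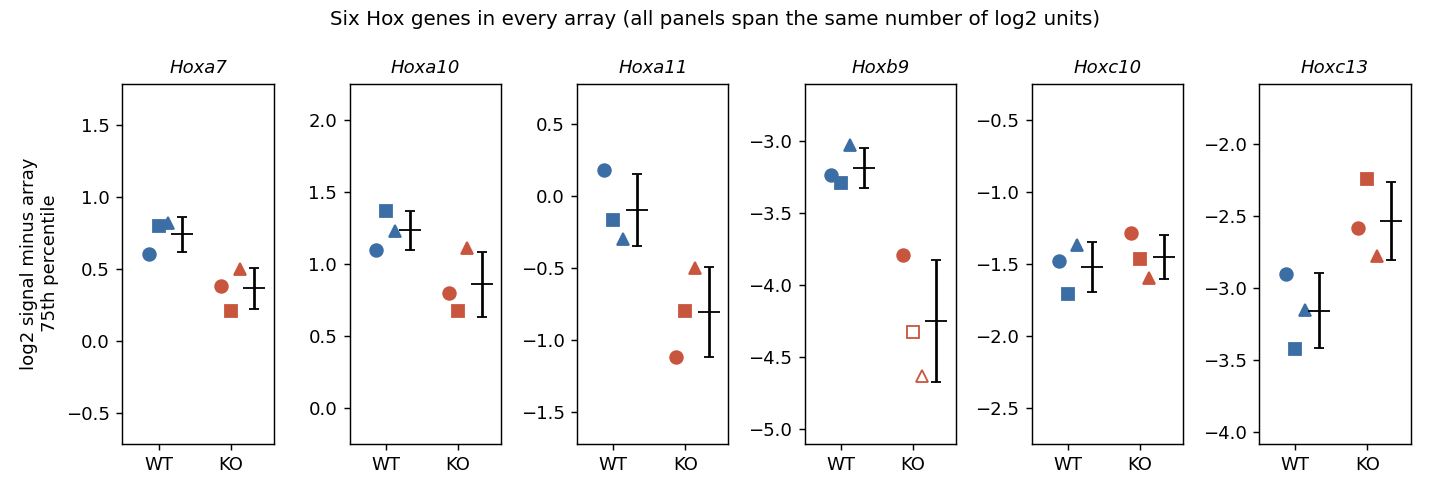
Log2 signal minus the 75th percentile of the array (vertical axis, with the same span in every panel) for 6 Hox genes in WT (blue) and KO (red) arrays. Circles, squares and triangles are replicates 1, 2 and 3, open symbols are values not well above background, and bars give mean ± SD (n = 3). KO points lie below all WT points for Hoxa7, Hoxa11 and Hoxb9 and above them for Hoxc13, and the groups overlap for Hoxa10 and Hoxc10.

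In HoxB, Hoxb9 had -3.24, -3.29 and -3.03 in WT and -3.79, -4.33 and -4.63 in KO, with only KO replicate 1 well above background among the KO arrays. All KO values lay below the WT values, with a log2 difference of -1.06 and SE of 0.21 (limma adjusted p = 0.0984). The gene entered the test through its WT arrays, and this difference rests on 2 KO values not well above background. With normexp background correction and quantile normalization the difference was -0.54 (limma adjusted p = 0.0721). A second Hoxb9 probe was not detected on any array. The 3′ genes of the cluster are known from the hindbrain. Hoxb2 had -2.65, -1.67 and -1.88 in WT and -2.83, -2.84 and -2.23 in KO, where WT replicate 1 lay with the KO arrays (log2 difference -0.57, SE 0.29; limma adjusted p = 0.409). Its difference was -0.86 without that array (limma adjusted p = 0.224), -0.37 without WT replicate 2 (limma adjusted p = 0.633) and -0.38 when both arrays with Xist signal were left out (limma adjusted p = 0.758). Hoxb3 and Hoxb4 both had a difference of 0.04, with SEs of 0.11 and 0.13.

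HoxC gave the only tested gene with a higher KO signal in every array. Hoxc13, which acts in hair and nail and in the tail, had -2.90, -3.42 and -3.15 in WT and -2.58, -2.24 and -2.78 in KO. The log2 difference was 0.62 (SE 0.18), a 1.54-fold higher signal, with a limma adjusted p of 0.19 (chromosome 15, 102759058 to 102759117, mm9). It was 0.40 with normexp and quantile normalization, and 0.64 without the arrays with Xist signal (limma adjusted p = 0.432). Hoxc10, the hindlimb gene of the thigh group, had -1.48, -1.71 and -1.37 in WT and -1.29, -1.47 and -1.60 in KO. Its groups overlapped, and the log2 difference was 0.07 (SE 0.12; limma adjusted p = 0.845), with a negative sign when WT replicate 2 or KO replicate 1 was left out. Hoxc9, of the thoracic and lumbar region, had 0, 0.40 and 0.16 in WT and 0.02, -0.16 and -0.15 in KO, a log2 difference of -0.28 (with SE 0.12 and a limma adjusted p of 0.337). The other tested HoxC genes, Hoxc4, Hoxc5, Hoxc6, Hoxc8 and Hoxc11, had differences from -0.16 to 0.22. In HoxD, the 1 tested gene was Hoxd8, with a difference of 0.02 (with SE 0.13 and a limma adjusted p of 0.97).

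The non-coding RNAs of the clusters had 9 members on the array, of which 7 were tested and all 7 had a difference below 0, where 6789 of all 15371 genes tested had, with a median of -0.13. By unadjusted limma p under 0.05, 2 were lower, where 8.03% of all genes were, and 0 higher, and 0 passed after adjustment. The other 5 had differences from -0.19 to -0.01. Hoxa11os, the antisense RNA that starts inside Hoxa11 and is known to be used in limb cells apart from those that use Hoxa11, had 0.45, 0.21 and -0.12 in WT and -1.27, -0.87 and -0.38 in KO. All KO arrays lay below all WT arrays, and the order of the KO arrays was that seen for Hoxa11. The log2 difference was -1.02 (SE 0.25), a 2.02-fold lower signal (limma adjusted p = 0.138; chromosome 6, probe at 52199727 to 52199786, mm9). A second probe that overlaps it gave -1.0.

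Mira lies beside Hoxa7 and has been described as an activator of Hoxa6 and Hoxa7 in embryonic stem cells. It had 0.74, 0.80 and 0.79 in WT and 0.51, 0.42 and 0.48 in KO. The arrays of each group lay close together and the groups did not overlap (log2 difference -0.31 with SE 0.07; limma adjusted p = 0.123; chromosome 6, probe at 52164490 to 52164549, mm9). Hottip, the RNA at the 5′ end of HoxA known to help keep the 5′ genes active, had -2.19, -2.49 and -2.16 in WT and -2.29, -2.46 and -2.30 in KO, a difference of -0.07 (with SE 0.11 and a limma adjusted p of 0.828). Gm15050, Hoxaas2, Hoxaas3 and Hoxb5os had differences of -0.19, -0.13, -0.01 and -0.10, while Hoxd3os1 and Gm53 were not detected on any array. Hotair was not analysed here.

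**Figure D4:**
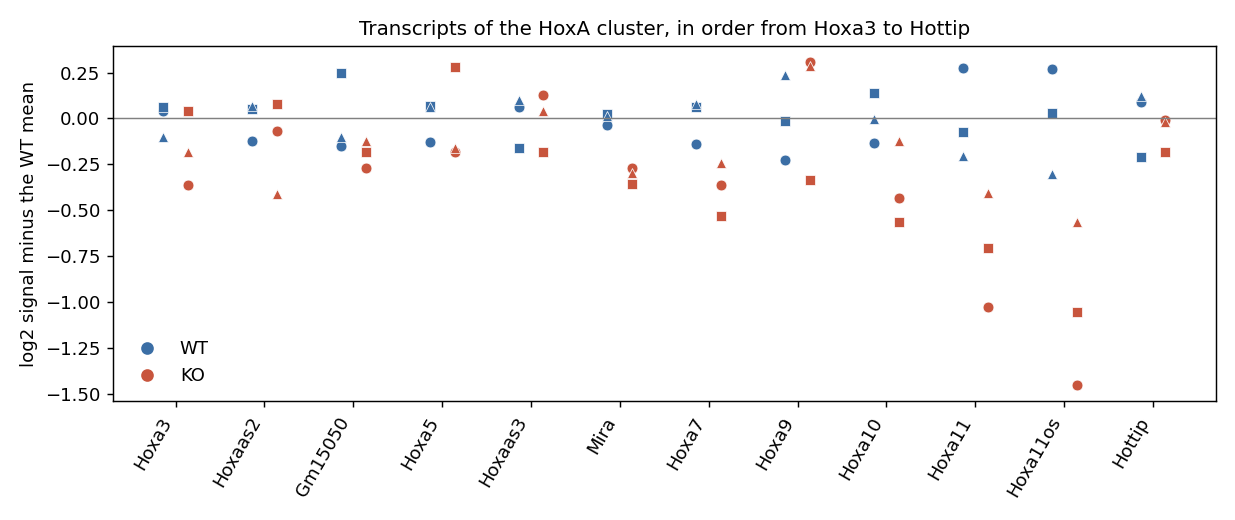
Log2 signal minus the WT mean (vertical axis) for tested genes and non-coding RNAs of HoxA, in chromosomal order from Hoxa3 to Hottip, each by its brightest probe. Blue points are WT arrays and red points KO arrays, with circles, squares and triangles for replicates 1, 2 and 3; the KO points lie below all WT points at Mira, Hoxa7, Hoxa11 and Hoxa11os.

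The sequences ahead of the starts of these 4 HoxA transcripts are shown, since they are the tested ones of the cluster whose groups did not overlap. They are the 250 bases before each start in RefSeq (GRCm38.p6, chromosome 6), from chr6:52218574-52218823 for Hoxa7, chr6:52215289-52215538 for Mira and chr6:52245811-52246060 for Hoxa11, all on the minus strand, and chr6:52244993-52245242 on the plus strand for Hoxa11os. Capitals mark matches on either strand to TGACAG, a core read by MEIS factors, or to TTTATG, a core of caudal and 5′ Hox proteins.
Hoxa7: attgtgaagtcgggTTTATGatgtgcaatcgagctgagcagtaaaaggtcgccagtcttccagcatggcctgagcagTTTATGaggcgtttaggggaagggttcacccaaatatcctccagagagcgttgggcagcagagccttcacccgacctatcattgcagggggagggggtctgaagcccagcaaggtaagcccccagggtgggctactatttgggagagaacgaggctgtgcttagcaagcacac
Mira: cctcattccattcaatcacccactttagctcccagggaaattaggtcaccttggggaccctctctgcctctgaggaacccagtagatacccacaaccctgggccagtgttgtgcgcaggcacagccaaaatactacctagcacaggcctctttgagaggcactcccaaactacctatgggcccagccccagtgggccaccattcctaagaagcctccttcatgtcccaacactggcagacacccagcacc
Hoxa11: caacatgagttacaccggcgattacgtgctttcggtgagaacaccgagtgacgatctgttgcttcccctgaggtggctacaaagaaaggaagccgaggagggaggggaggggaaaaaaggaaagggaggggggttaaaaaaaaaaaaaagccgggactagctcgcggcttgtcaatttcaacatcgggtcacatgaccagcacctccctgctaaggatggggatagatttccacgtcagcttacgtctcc
Hoxa11os: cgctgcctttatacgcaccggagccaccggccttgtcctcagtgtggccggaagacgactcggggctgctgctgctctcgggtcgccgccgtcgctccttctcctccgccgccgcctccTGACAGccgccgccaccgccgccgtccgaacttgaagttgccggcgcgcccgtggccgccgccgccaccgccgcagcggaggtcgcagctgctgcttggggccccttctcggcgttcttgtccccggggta

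Hoxa7 held 2 matches to TTTATG, a motif found in 10.8% of all 32851 windows of this length, and Hoxa11os 1 match to TGACAG, found in 15.9%. A PBX-HOX motif, TGATTNAT, was found in 2.82% of windows and in none of these 4. The windows of Mira and Hoxa11 and both starts of Hoxa10 held none of the 3 motifs, which says only that these letters are absent there. The windows differ in base composition: the Hoxa11os window, which lies within the Hoxa11 gene, held 35 CpG pairs in its 250 bases, and those of Hoxa11, Hoxa7 and Mira held 13, 7 and 1. In RefSeq the Hoxa11 and Hoxa11os genes share 568 bases, and 334 bases separate Hoxa7 from Mira.

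Over the clusters, 22 of the 39 Hox genes had a promoter entry. Counted over 300 bases, 250 before and 50 after the start, the median CpG count was 13 (from 4 to 29) for 10 starts of 9 genes detected on all 6 arrays. It was 20 (from 4 to 45) for 14 starts of the 13 other Hox genes with an entry, and 7 over all starts in the table. These counts are a description, with wide overlap between the Hox sets.

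No other factor of limb position and limb type passed the adjusted threshold. Of 37 such transcription factors on the array, 23 were tested, 20 had a difference below 0, where 6789 of all 15371 genes tested had, and the median was -0.17 against 0.02. By unadjusted limma p under 0.05, 5 were lower, where 8.03% of all genes were, and 0 higher. Irx5, a patterning factor of the early limb bud, had -1.22, -0.92 and -1.22 in WT and -1.87, -2.03 and -1.68 in KO. The groups did not overlap (log2 difference -0.74, SE 0.13; limma adjusted p = 0.0833).

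Alx4, a factor of front to back polarity in the limb, and Tbx2, of limb margins, had log2 differences of -0.99 and -0.77 with limma adjusted p of 0.161 and 0.162. Twist1 and Shox2, which act in limb mesenchyme and in the proximal limb skeleton, had -0.32 and -0.26, both with a limma adjusted p of 0.264. In all 4 the KO values lay below the WT values, but Alx4, Tbx2 and Twist1 were named for their small p. Of the 23 factors tested, 7 had KO values below all WT values and 0 above. The shares over all genes tested were 10.4% and 12.0%. Prrx1, the general marker of limb mesenchyme, had 2.09, 2.01 and 1.97 in WT and 1.96, 1.75 and 1.90 in KO, a difference of -0.16 (with SE 0.09 and a limma adjusted p of 0.447). The number of these factors lower by unadjusted p was 8 without WT replicate 1 and 3 without WT replicate 3.

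Of 14 limb bud signals, 8 were tested, with a median of -0.20. By unadjusted limma p under 0.05, 2 were lower and 1 higher, where 8.03% and 6.94% of all genes were. Grem1, a BMP antagonist that keeps limb signalling going and also marks skeletal stem cells, had 1.77, 1.89 and 1.71 in WT and 2.40, 2.52 and 2.19 in KO. Every KO array was above every WT array (log2 difference 0.58, SE 0.11; limma adjusted p = 0.0907). With a variance trend in limma its adjusted p was 0.0497. Bmp4, a ligand that Grem1 binds, had 1.21, 0.94 and 1.20 in WT and 0.47, -0.04 and 0.77 in KO, with no overlap (log2 difference -0.71, SE 0.21; limma adjusted p = 0.188). Rarb, a retinoic acid receptor and 1 of the 2 lower signals, was detected on the 3 WT arrays and on no KO array. Its values overlapped between groups (limma adjusted p = 0.276). The gene entered the test through its WT arrays alone, and its difference rests on KO values not well above background. Wnt5a, a ligand of limb outgrowth, had a difference of -0.23 (with SE 0.10 and a limma adjusted p of 0.329).

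The TALE proteins bind DNA together with Hox proteins. Of 11, 10 were tested, with a median difference of -0.01. By unadjusted limma p under 0.05, 1 was lower and 0 higher, where 8.03% and 6.94% of all genes were. The lower gene was Pknox2, with -3.53, -3.57 and -3.31 in WT and -3.86, -3.84 and -4.04 in KO, where KO replicate 3 was not well above background (log2 difference -0.44, SE 0.10; limma adjusted p = 0.128). Meis1, Meis2, Meis3, Pbx2 and Pbx3 had differences of 0.06, 0.18, -0.06, 0.11 and -0.03, with limma adjusted p from 0.603 to 0.904. Of these, all but Pbx2 changed sign under at least 1 alternative.

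Polycomb proteins keep Hox genes silent and Trithorax proteins keep them active. Of 44 regulators on the array 41 were tested, with a median of 0.06 against 0.02 over all genes tested. By unadjusted limma p under 0.05, 0 were lower and 5 higher, where 8.03% and 6.94% of all genes were. None passed the adjusted threshold. Dot1l, a histone methyltransferase of active genes, and Mtf2, an accessory protein of the Polycomb complex PRC2, had log2 differences of 0.28 and 0.27 (limma adjusted p = 0.184 and 0.188). Kmt2d, which methylates enhancers, and Gmnn, which binds Hox and Polycomb proteins, had 0.30 and 0.28 (limma adjusted p = 0.268 and 0.283). These 4 genes were named for their small p, and in all 4 the KO values lay above the WT values. Of the 41 tested, 7 had KO values above all WT values and 1 below. The shares over all genes tested were 12.0% and 10.4%. The number higher by unadjusted p was 2 without WT replicate 1 or without KO replicate 3.

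The list of genes flanking the clusters had 13 of 16 members tested, with a median of 0.05. By unadjusted limma p under 0.05, 1 was lower and 2 higher, where 8.03% and 6.94% of all genes were. Lnpk and Hnrnpa3, near HoxD, had differences of 0.18 and 0.24, and Cbx5, near HoxC, 0.23 (limma adjusted p = 0.313, 0.294 and 0.405). The lower member, 2610301B20Rik, had -0.24 (limma adjusted p = 0.264), but its probe lies on chromosome 4, which holds no Hox cluster, so it was listed in error. With median centring in place of the 75th percentile, none of the 13 was higher. Homeobox genes outside the clusters had 12 of 30 tested, with a median of -0.22. By unadjusted limma p under 0.05, 4 were lower and 0 higher, where 8.03% and 6.94% of all genes were. Dlx3, a factor of osteoblasts and skin appendages, had 1.80, 1.78 and 1.75 in WT and 1.20, 1.06 and 1.26 in KO, with no overlap. Its log2 difference was -0.60 (SE 0.08; limma adjusted p = 0.0592), and the limma adjusted p was 0.0456 with normexp and 0.0309 with a variance trend. Six5 and Six4 had differences of -0.39 and -0.21 (limma adjusted p = 0.254 and 0.261). Dlx4, 1 of the 4 lower genes, was detected on the 3 WT arrays and on no KO array (limma adjusted p = 0.292). It entered the test through its WT arrays alone, and its difference rests on KO values not well above background.

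Of 20 osteoblast lineage genes tested, 16 were lower and 1 higher by unadjusted limma p under 0.05. Over all genes tested the shares were 8.03% and 6.94%. Past the adjusted threshold 2 were lower, where 0.0651% of all genes were. The 20 genes had a median difference of -0.76. The log2 of their summed level ran from 10.62 to 10.71 in WT and from 10.05 to 10.47 in KO. Dlx3 and Runx2 are members of that list, and Runx2, the master factor of osteoblasts, was detected on all 6 arrays with a log2 difference of -1.24 (with SE 0.25 and a limma adjusted p of 0.101). A list of 18 skeletal genes linked to posterior Hox genes, which shares Runx2 and Sp7 with it, had 12 tested and a median of -0.57. Of these, 7 were lower and 1 higher by unadjusted limma p under 0.05, against the same 8.03% and 6.94% of all genes. Past the adjusted threshold 1 was lower, where 0.0651% of all genes were, and the lowest difference was -2.43. Of 8 chondrocyte genes tested, 4 were lower and 1 higher by unadjusted limma p under 0.05, against 8.03% and 6.94% of all genes. The 8 genes had a median of -0.66 and summed levels from 5.50 to 5.65 in WT and from 5.51 to 5.68 in KO.

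Stromal progenitor markers, which include Prrx1 and Grem1, had 19 of 20 tested and a median of 0.01, with differences from -1.21 to 0.58. By unadjusted limma p under 0.05, 1 was lower and 4 higher, where 8.03% and 6.94% of all genes were. Summed levels of these markers ran from 7.44 to 7.45 in WT and from 7.45 to 7.55 in KO. Over the 25 macrophage and monocyte markers the median difference was 0.12, with summed levels from 10.73 to 10.78 in WT and from 10.81 to 10.90 in KO. Haematopoietic progenitor markers, which include Hoxa9 and Meis1, had 10 of 16 tested and a median of 0.08, with summed levels from 4.22 to 4.29 in WT and from 4.34 to 4.41 in KO. Of 12 skeletal muscle markers, 2 were detected on all 6 arrays and 5, among them the muscle factor Myod1, on none. Of the 5 tested, 3 were lower and 0 higher by unadjusted limma p under 0.05, where 8.03% and 6.94% of all genes were. Past the adjusted threshold 2 were lower, where 0.0651% of all genes were. Tested genes beyond the 2 detected on all 6 arrays had some values not well above background. These counts may therefore rest in part on such values. The 5 tested muscle markers had a median of -0.27 and a lowest difference of -2.08. Their summed levels ran from 2.01 to 2.12 in WT and from 1.96 to 2.11 in KO. Lymphocyte and endothelial markers had 5 and 6 genes tested. Of these, 0 were lower and 0 higher by unadjusted limma p under 0.05, where 8.03% and 6.94% of all genes were. The part of these cell type markers in the Hox results was not tested.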

How the data were processed

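RNA of 3 WT and 3 KO samples was read on 1-colour Agilent arrays. The deposited intensity values are background-corrected processed signals, mean signals and background medians, per the file headers, which name Agilent Feature Extraction 10.7.1.1 where the submitters' processing notes name 9.1. The deposited series table holds log2 values whose columns share a median of 6.15. They followed their own arrays with r of 0.9999 or more, with their processing not given in the sources used here.

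Each array's 75th percentile over non-control probes was subtracted from the log2 processed signals, without outlier spots (49 to 131 per array). Probe positions in the files are mm9. Probes were named through RefSeq (GRCm38.p6), 32989 of 56605 by accession. Testing was limited to the 28607 probes with 2 or more values per group and a signal well above background throughout 1 group or both. Probes without a gene name were kept in the test, and the named ones covered 15371 genes. The two-sided test was that of limma 3.58.1 in R 4.3.3 (eBayes after lmFit, with no term besides group), with Benjamini-Hochberg adjustment over all tested probes. A gene was represented by its brightest tested probe, or by its brightest probe where none was tested. Lists are described by counts and medians, without a set test, and a summed level is the log2 of the sum of linear values over tested members. The number of arrays limits precision.

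Values are given in every sample for the 4 Hox genes taken as markers of femur stroma and for Hox genes detected on some arrays only. So are those of tested Hox genes with an unadjusted p under 0.05 or groups apart by a log2 difference of 0.5 or more. Undetected genes were not held to that rule. From each pathway list, up to 4 genes with the smallest p and a few limb and cofactor genes are named. Values of Hoxa9, Hoxb2 and Hoxc9 were added after they were seen. The members and lists were chosen with earlier results of these data known. The fit was tested on simulated data. A few genes are counted in the totals and lists but are not reported here by name or shown in the plots.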

Additional observations from a re-analysis of the deposited data

How the results depend on the processing

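No Hox gene passed the adjusted threshold under any alternative run, including adjustment over 1 probe per gene, an alternative chosen after seeing the data, as were those of the lists. The count of Hox genes detected on all 6 arrays, 18, ran from 18 to 25 under other rules of detection. The labels do not say whether replicate numbers pair the samples. Deviations of probes from their group means correlated at 0.056, 0.154 and -0.032 between same-numbered WT and KO arrays, which cannot decide this. With the replicate block, 4 Hox genes were lower and 1 higher by unadjusted p, as without it, 0 of all genes tested passed adjustment in place of 10 lower and 2 higher, and 0 flanking genes were lower and 0 higher. All genes passing adjustment numbered 129 lower and 13 higher with normexp, 56 and 6 with median centring, 132 and 21 with a variance trend, 24 and 4 on averaging each gene's probes, and 0 and 0 without a filter on dim probes or with Xist signal as a term. Counts below are by unadjusted limma p. Without the filter, 10 of 39 Hox genes were higher with a median of 0.07; limb factors had 3 lower, 6 higher and a median of -0.06, limb signals 3 higher, cluster non-coding RNAs 2 higher, flanking genes 0 lower, 1 higher and a median of 0.02, and dispersed homeobox genes 6 higher and a median of -0.07. The median of all genes was then 0.09, and 6602 of 27195 were higher. Without the arrays with Xist signal, 2 Hox genes were lower and 0 higher, 1 limb signal lower, 1 TALE gene higher with a median of 0.05, 3 Polycomb and Trithorax genes higher, 1 flanking gene higher, and 1 dispersed homeobox gene higher. On averaging each gene's probes, 1 TALE gene was higher with a median of 0.04, Pbx3 had 0.02, 1 Polycomb or Trithorax gene was lower and 1 flanking gene higher. With probes detected on all arrays, 0 TALE genes were lower. Median centring gave a median of 0.03 for Polycomb and Trithorax genes and of 0.02 for flanking genes, of which 0 were higher, as with Xist signal as a term, and 1 was with the deposited table or a variance trend. Normexp gave flanking genes a median of -0.01. After adjustment, 1 limb signal passed with a variance trend, and 1 dispersed homeobox gene with that or with normexp. The causes were not tested.

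Leaving out 1 replicate at a time gave ranges of 3 to 7 lower Hox genes, 3 to 8 lower limb factors (median -0.26 to -0.10), 1 to 2 lower limb signals, 0 to 1 higher TALE genes (median -0.04 to 0.05), 2 to 4 higher Polycomb and Trithorax genes (median 0.03 to 0.07), and a cluster non-coding RNA median of -0.19 to -0.10. For flanking genes it gave 0 to 1 lower and 0 to 2 higher (median 0.01 to 0.08), and for dispersed homeobox genes 1 to 4 lower and 0 to 1 higher (median -0.26 to -0.14). Differences whose sign changed included those of Hoxc10 (-0.03 to 0.14), Hoxc5 (-0.30 to 0.11), Hoxa5 (-0.17 to 0.06), Hoxa9 (-0.03 to 0.29), Hoxb3 (-0.03 to 0.11), Hoxb4 (-0.07 to 0.13), Hoxc6 (-0.08 to 0.10) and Hoxd8 (-0.11 to 0.10), the latter pair also with median centring, Hoxb3 on averaging probes, and Hoxa5 without the arrays with Xist signal (0.09). They also ran from -0.24 to 0.01 for Hoxaas2, -0.13 to 0.06 for Pitx1, -0.11 to 0.17 for Meis1, -0.04 to 0.45 for Meis2, -0.12 to 0.04 for Meis3 and -0.11 to 0.03 for Pbx3. Slide and scan as a block were not run, since all arrays share both. Signal over background limits the genes detected on part of the arrays.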
